A study of Mus musculus with 10 samples.

Results

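Loss of Il4 was examined in CD4+CD25- T cells sorted from mouse mammary tumours, by setting all replicates that lacked Il4 against all that carried it, whatever their Tgfbr2 status. The comparison used all 10 RNA sequencing libraries of the series. On the Il4-deficient side were 4 replicates, 2 labelled IL4-/- (Il4-/- Tgfbr2fl/fl PyMT) and 2 labelled IL4-/-KO (Il4-/- ThPOKCre Tgfbr2fl/fl PyMT). On the Il4-sufficient side were 4 replicates from 6 libraries, 2 labelled WT (Tgfbr2fl/fl PyMT) and 2 labelled KO (ThPOKCre Tgfbr2fl/fl PyMT), with a first and a repeat library from 1 RNA for each KO replicate, averaged here. All mice were C57BL/6, 23 weeks old, and all carried floxed Tgfbr2 and PyMT, a transgene that drives mammary tumours, so no group is free of either. ThPOK-Cre acts in the CD4 lineage and removes the TGF-beta receptor there, whereas Il4 was missing from the whole animal, including from cells other than those sorted. Whether replicates are separate mice is not stated in the labels, and a p-value here therefore covers just the spread among these samples, part of which may be technical.

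Interleukin-4 is the founding cytokine of type 2 immunity. T cells that have met antigen make it with IL-5 and IL-13, whose genes sit beside Il4 on mouse chromosome 11, and its receptor signals through the transcription factor STAT6, which promotes Gata3 and thereby further type 2 cytokine output. In T cells, the calcium-driven factor NFAT is a main activator of the Il4 promoter, and IL-4 acts on many other cells, among them macrophages and endothelium.

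The start-proximal DNA of the 3 linked type 2 cytokine genes, Il4, Il5 and Il13, is shown as background. Each run is the 250 bases before the gene's start in RefSeq (GRCm38.p6), written on the gene's own strand. Il4 is chr11:53618666-53618915 on the minus strand, Il5 is chr11:53720544-53720793 on the plus strand, and Il13 is chr11:53634703-53634952 on the minus strand. Capitals mark the NFAT core GGAAA and the STAT-type palindrome (TTC and GAA spaced by 4 bases of any kind), both searched on both strands.
Il4: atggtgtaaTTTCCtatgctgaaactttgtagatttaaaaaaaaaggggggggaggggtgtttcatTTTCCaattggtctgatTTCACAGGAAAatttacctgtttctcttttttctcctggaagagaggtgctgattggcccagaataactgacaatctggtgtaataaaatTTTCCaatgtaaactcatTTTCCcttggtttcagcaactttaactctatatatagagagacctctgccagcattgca
Il5: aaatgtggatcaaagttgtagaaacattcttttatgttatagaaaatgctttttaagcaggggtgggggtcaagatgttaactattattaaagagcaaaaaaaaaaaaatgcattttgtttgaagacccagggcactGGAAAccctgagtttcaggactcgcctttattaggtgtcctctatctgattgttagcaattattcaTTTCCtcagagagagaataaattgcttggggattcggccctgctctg
Il13: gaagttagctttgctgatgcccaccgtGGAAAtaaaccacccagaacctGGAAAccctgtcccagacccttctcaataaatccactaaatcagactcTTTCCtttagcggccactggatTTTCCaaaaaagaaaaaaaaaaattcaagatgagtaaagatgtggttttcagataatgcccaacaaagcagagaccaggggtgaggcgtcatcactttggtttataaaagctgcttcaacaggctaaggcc
The Il4 window held 5 NFAT cores and 1 STAT-type palindrome, which overlaps a core. The Il5 window held 2 cores and the Il13 window 4, and neither held the palindrome. Of 14155 windows of this length at 11133 tested genes, 53.8% held the core and 4.60% the palindrome. These matches are letters only.

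The libraries were not evenly deep. Depth was 17121030 to 18479090 reads in the 4 libraries of WT and of first-made KO, and 28003231 to 33802781 reads in the 2 KO repeats and the 4 Il4-deficient libraries. The shallower set therefore held only Il4-sufficient libraries, and over the whole comparison library set and Il4 status cannot be told apart. Within the deeper set, IL4-/-KO could be set against the KO repeats, a comparison named the deeper-set comparison here, with 2 libraries a side; the repeat of KO replicate 2 stood apart on the first principal component, at 226 against -89.5 to 69.2 in the other libraries. With that library left out of the comparison over 8 replicates, KO replicate 2 came from its first library alone, and limma still called 0 genes. The medians of type 2 cytokines, immediate early genes and chromatin genes, described below, were then -1.58, -0.94 and 1.07. The deeper-set comparison was not run without that library, which is 1 of the 2 KO libraries it rests on. Core T cell genes were read in every library: Cd3e, part of the T cell receptor complex, had 13302 to 32092 normalized counts (reads divided by the authors' size factor) over the 8 replicates, and Cd4 had 12165 to 40172. In such bulk samples, fewer cells of a type and less RNA per cell cannot be told apart.

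Il4 itself was lower without the gene, yet not silent. Il4 (chr11:53602982-53618669, minus strand, mm10) was read at 107 and 276 normalized counts for WT, 389 and 380 for KO, 97.2 and 75.4 for IL4-/-, and 98.7 and 39.7 for IL4-/-KO. All 4 Il4-deficient replicates lay below all 4 Il4-sufficient ones, although WT replicate 1 was close to the highest of them. The log2 fold change was -1.80 ± 0.60 (SE; limma, unadjusted p = 0.0147, adjusted p = 0.356). A count over the whole gene does not show which part of Il4 was read, and the labels do not say which part the allele lacks.

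The neighbouring cytokine gene Il5, whose product feeds eosinophils, was read at 35.6 and 38.3 normalized counts for WT, 525 and 3660 for KO, 16.2 and 0.644 for IL4-/-, and 681 and 15.2 for IL4-/-KO. The level of 0.644 was a single read. Il5 was highest in KO replicate 2, and IL4-/-KO replicate 1 lay above 3 of the Il4-sufficient replicates, so the sides overlapped (log2 fold change -3.28 ± 1.28, limma, adjusted p = 0.397).

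Csf2, encoding the myeloid growth factor GM-CSF, was read at 173 and 154 normalized counts for WT, 1921 and 2606 for KO, 42.1 and 137 for IL4-/-, and 1131 and 291 for IL4-/-KO. On each Tgfbr2 background both Il4-deficient replicates were below both Il4-sufficient ones (log2 fold change -1.53 ± 0.54, limma, adjusted p = 0.366). Il13, which drives mucus and matrix responses, was read at 1.44 to 11.1 normalized counts in the Il4-deficient replicates, at 6.59, 10.6 and 10.6 in 3 Il4-sufficient ones and at 247 in KO replicate 2, so its difference rested on 1 replicate. All 8 tested members of the type 2 cytokine list had a log2 fold change below 0 (51.2% of all genes), with a median of -1.46 against -0.02 over all 14473 genes tested. None passed the adjusted threshold of 0.05. Of the 8, Il4, Csf2 and Il5 were lower with an unadjusted p under 0.05, a class that held 4.24% of all genes. Il4 is the gene whose loss defines the sides, so its fall was set by the design, and the median was not taken without it. Il5 and Csf2 start within 1 Mb of the start of Il4. In the deeper-set comparison the list median was -1.74. Leaving out 1 replicate at a time gave medians of -2.06 to -1.10. Without IL4-/-KO replicate 2, only 1 member had an unadjusted p under 0.05, and without a Tgfbr2 covariate likewise 1; with a term for library set the count was 0.

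**Figure D1:**
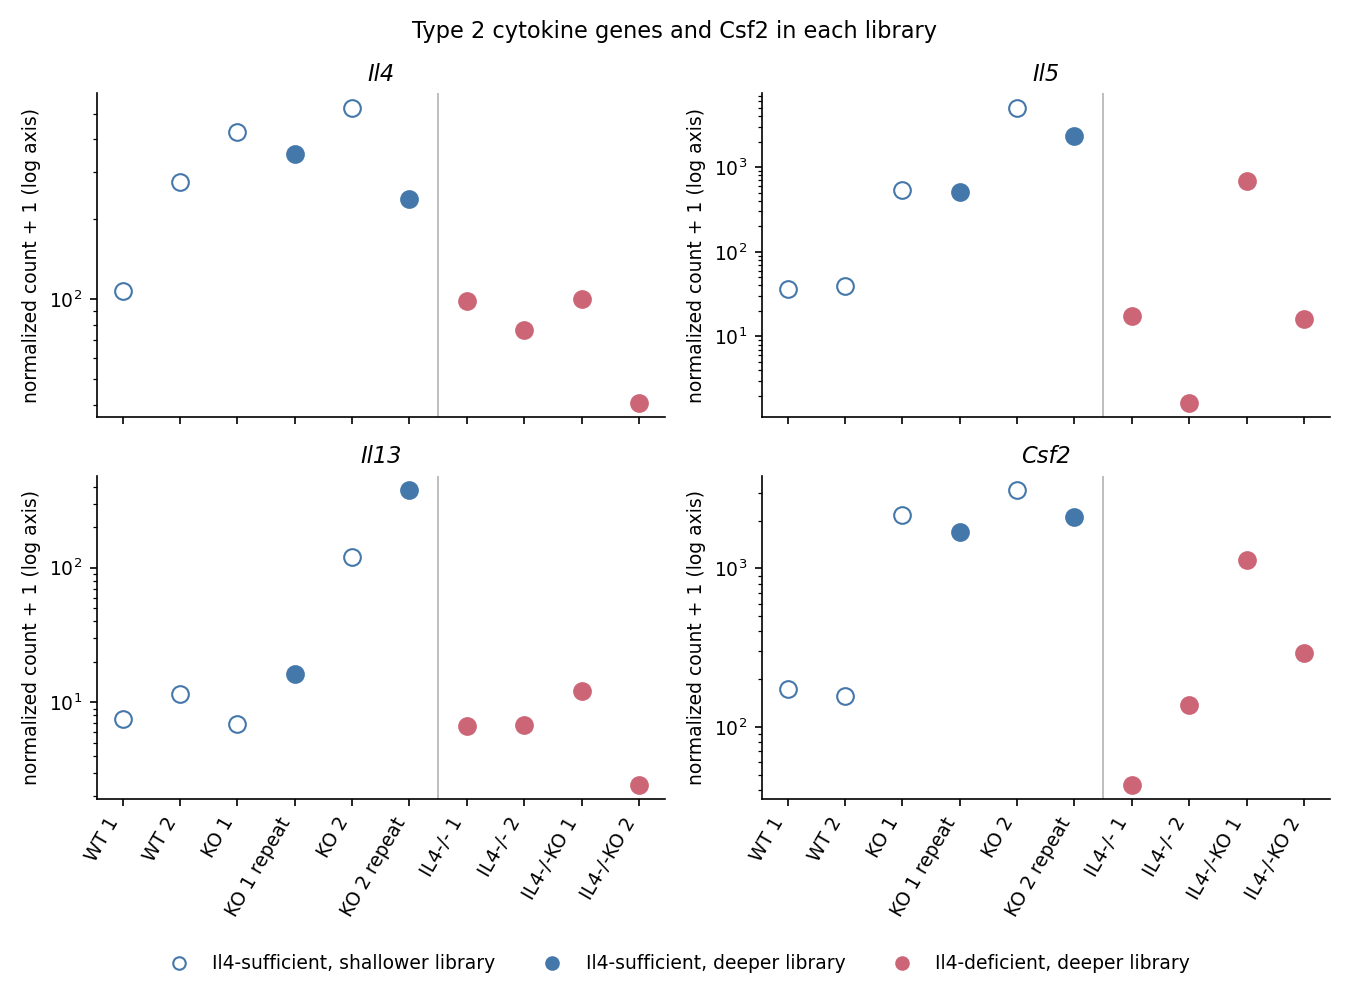
Normalized counts plus 1 (log axis) of Il4, Il5, Il13 and Csf2 in each of the 10 libraries, with Il4-sufficient libraries left of the line and Il4-deficient ones right of it; open circles are shallower libraries and filled circles deeper ones. Il4 is lower in all 4 Il4-deficient libraries, at 39.7 to 98.7, whereas Il5 in IL4-/-KO replicate 1 stays at 681.

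The machinery around IL-4 was less uniform than its cytokines. Stat6, the factor that carries the IL-4 signal, had 6926, 7444, 7502 and 7946 normalized counts in the Il4-deficient replicates against 6814 to 9739 in the others, a log2 fold change of -0.13 ± 0.20. Il4ra, the receptor chain that binds IL-4, gave -0.31 ± 0.28, and Gata3, the master regulator of type 2 helper cells, 0.17 ± 0.28. The sides overlapped for all 3 of these genes.

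Among the 19 tested type 2 regulators and receptors, 3 were lower (all genes, 4.24%) and 2 higher (all genes, 7.41%) with an unadjusted p under 0.05. Ecm1, an extracellular matrix protein that helps type 2 helper cells leave lymph nodes, was read at 3068 and 4762 normalized counts for WT, 3419 and 4472 for KO, 1906 and 2941 for IL4-/-, and 1105 and 601 for IL4-/-KO. Its sides did not overlap (log2 fold change -1.48 ± 0.38, limma, adjusted p = 0.297; DESeq2, adjusted p = 0.0343). The difference was -0.69 with Tgfbr2 intact and -2.26 with it deleted (limma interaction, unadjusted p = 0.0289, adjusted p above the threshold). The former sets deeper IL4-/- libraries against shallower WT ones, whereas the KO means hold both sets. Junb, an AP-1 subunit that activates Il4 transcription, is described with the immediate early genes. Ccr3, the eotaxin receptor, was higher at 62.5 to 543 normalized counts against 1.32 to 114, and Ptgdr2, a prostaglandin receptor of type 2 cells, was listed at 0 in 3 of the 4 Il4-sufficient replicates and had 11.3 to 37.1 in the Il4-deficient ones. The sides overlapped for both genes, for Ptgdr2 through the remaining Il4-sufficient replicate. Both had log2 fold changes on the opposite side of 0 from the type 2 cytokines.

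Of the 19 tested genes in the IL-4 and STAT6 response list, Tnfrsf4 and Socs1 were lower (all genes, 4.24%) and Cd44 higher (all genes, 7.41%) with an unadjusted p under 0.05, so the list was near the background. Socs1, an inhibitor of cytokine receptor signalling, had 5029, 2632, 3647 and 2306 normalized counts in the Il4-deficient replicates and 3640 to 6967 in the others (log2 fold change -0.82 ± 0.32). Cd44, an adhesion receptor of antigen-experienced T cells, had 9948, 9119, 8467 and 7099 against 4706 to 6352, with no overlap (0.62 ± 0.19, limma, adjusted p = 0.333). The median over the response list was -0.21, and that of the 23 JAK, STAT and SOCS genes 0.08. Among the latter only Socs1 was lower (all genes, 4.24%) and only Stat4 higher (0.98 ± 0.41, all genes, 7.41%) with an unadjusted p under 0.05. Il7r, the survival receptor that shares a chain with the IL-4 receptor, had 8464 to 13620 normalized counts in the Il4-deficient replicates and 2301 to 9903 in the others, so the sides overlapped (1.05 ± 0.35).

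Across all genes the comparison gave no call with limma: 0 of 14473 genes had an adjusted p under 0.05, and the smallest was 0.0715, for Ski. With an unadjusted p under 0.05 there were 1687 genes (11.7%), 1073 higher (7.41%) and 614 lower (4.24%). The 4 and 4 replicates did not overlap for 430 higher genes (2.97%) and 460 lower ones (3.18%). On recovered reads the quasi-likelihood test of edgeR also called 0 genes, with 1325 (9.15%) at an unadjusted p under 0.05, while the Wald test of DESeq2 called 221, 158 higher (1.09%) and 63 lower (0.435%). Leaving out WT replicate 2 raised the limma calls from 0 to 415, of which 366 were higher and 111 were also among the DESeq2 calls. Genes with an unadjusted p under 0.05 then numbered 2887, against 1687 with all 8 replicates. They numbered 1151 without WT replicate 1, and 1318 and 1392 without KO replicate 1 or 2. Without IL4-/- replicate 1 or 2 they numbered 1397 and 1599, and without IL4-/-KO replicate 1 or 2, 946 and 1117. List counts with a replicate left out, above and below, are to be read beside these totals.

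Genes with no overlap and the smallest p on the higher side were Phf3, Cep350, Cdkn1b, Kat6a, Apc, Lpp, Setd5, Trps1, Arhgap5 and Exoc4, each with a limma adjusted p of 0.182. Cdkn1b, the cell cycle inhibitor p27 that keeps T cells quiescent, was the most even of them: it had 1708, 1506, 1635 and 1445 normalized counts in the Il4-deficient replicates and 694, 636, 565 and 556 in the others. That is a log2 fold change of 1.36 ± 0.21 over 4 against 4 replicates, with 1.27 on the intact and 1.45 on the deleted Tgfbr2 background. It stayed apart in the deeper set, at 1.28, since both KO libraries of each kind read it at 444 to 669.

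Kat6a, a histone acetyltransferase, had 3012, 2799, 3011 and 3649 normalized counts against 403, 1065, 929 and 440 (2.26 ± 0.35). Phf3, a protein that binds elongating RNA polymerase II, had 4463, 2724, 3263 and 2753 against 784, 1232, 1013 and 579 (1.90 ± 0.28). Apc, the tumour suppressor that restrains Wnt signalling, had 1268 to 1718 against 165 to 541, and the zinc finger repressor Trps1 had 2458 to 9050 against 459 to 2343. For each of these 4 genes every Il4-deficient replicate was above every Il4-sufficient one. Arhgap5 showed the widest log2 fold change of the 10, 2.83 ± 0.47, and rested in part on KO, where its 4 libraries held 54.4, 172, 246 and 6.62 normalized counts. All 10 were also higher in the deeper-set comparison, at 1.10 to 5.38.

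On the lower side, the corresponding genes were Ski, Egln1, Irf2bp2, Rgcc, Eif4a1, Ppp2cb, Ier5l, Zfp777, Mta1 and Tsc22d3. Ski, a repressor of TGF-beta-activated SMAD proteins, was read at 6754 and 8607 normalized counts for WT, 1537 and 1232 for IL4-/-, and 538 and 641 for IL4-/-KO. In KO its first libraries held 3254 and 4448 and its repeats, from the same RNA, 587 and 1350. The log2 fold change of -2.24 ± 0.23 (limma, adjusted p = 0.0715) had the smallest p of the comparison, but the difference was -0.60 in the deeper set and -0.52 with a term for library set. Egln1, an oxygen sensor that marks HIF-1 alpha for decay, went from -1.93 ± 0.29 to -0.36 in the deeper set, and Irf2bp2, a transcriptional corepressor, from -2.02 ± 0.33 to 0.24. The Irf2bp2 libraries of KO read 7260 and 8989 first and 1102 and 1255 in the repeat, close to the 1020 to 1585 of the Il4-deficient libraries.

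Rgcc and Tsc22d3, by contrast, had their KO repeats well above the Il4-deficient libraries. Rgcc, a regulator of cell cycle entry that responds to complement, had 3730, 2789, 2582 and 2702 normalized counts in the Il4-deficient replicates and 6485, 6822, 4971 and 6340 in the others (log2 fold change -1.07 ± 0.19, limma, adjusted p = 0.212), and -1.25 in the deeper set. Tsc22d3, the glucocorticoid-induced leucine zipper GILZ, had 11143, 8925, 8579 and 8193 against 16690, 21134, 27339 and 20924 (-1.21 ± 0.24), and -1.32 in the deeper set. Eif4a1, an RNA helicase of translation initiation, had 4453 to 5073 against 8804 to 11265 (-1.0 ± 0.18), and -0.61 in the deeper set. Its libraries also split by set, since the 4 shallower ones held 9524 to 11270 and the KO repeats 8336 and 6339. For all 3, no Il4-deficient replicate reached an Il4-sufficient one.

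**Figure D2:**
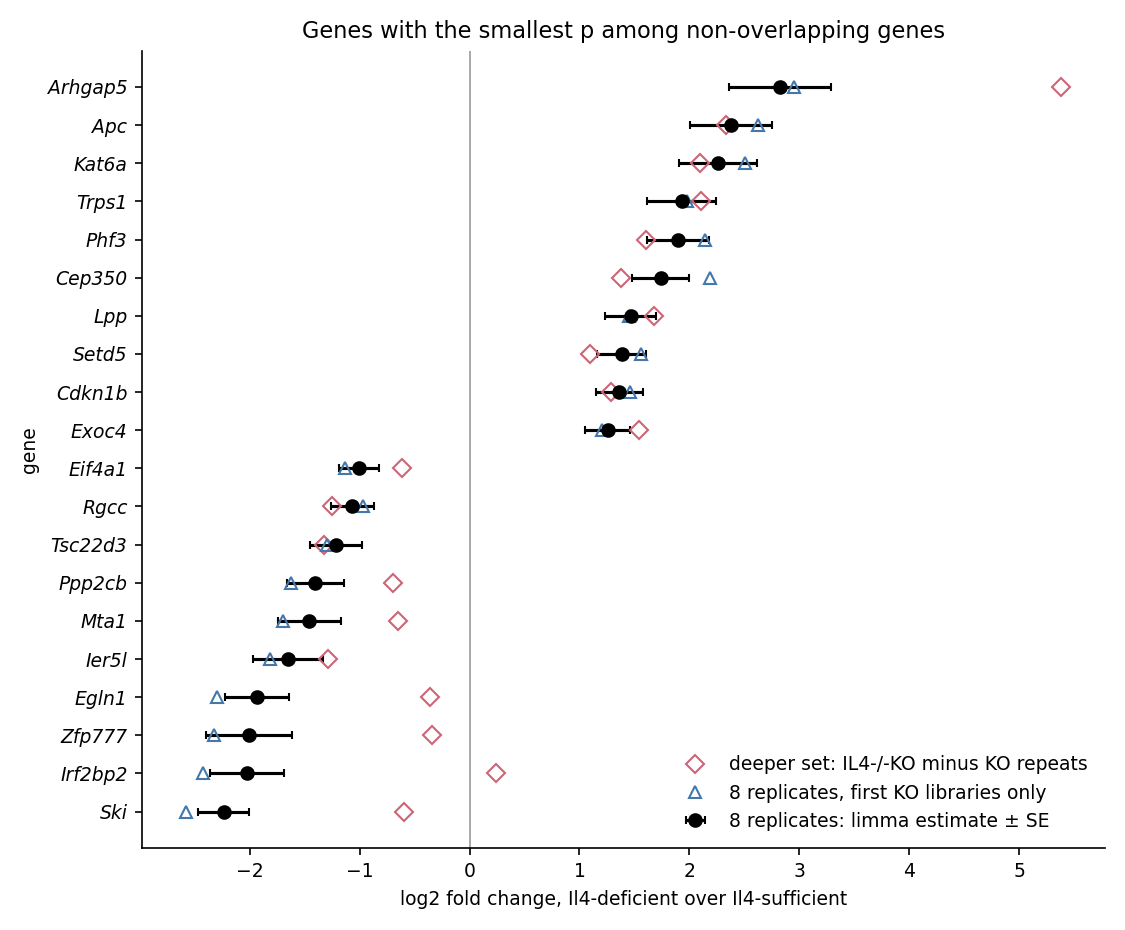
Log2 fold change, Il4-deficient over Il4-sufficient, of the 10 higher and 10 lower genes with the smallest p among those whose replicates did not overlap; black points are limma estimates over 8 replicates with SE bars, red diamonds the deeper-set comparison and blue triangles the estimate with first KO libraries only. The higher genes stay at 1.10 or more in the deeper set, whereas Irf2bp2 moves from -2.02 to 0.24.

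Over all genes the deeper-set comparison left IL4-/-KO and the KO repeats not overlapping for 25.2% of genes on the higher side and 20.1% on the lower side. Of the 1073 genes higher with an unadjusted p under 0.05, 931 (86.8%) were among the former, and of the 614 lower ones, 463 (75.4%) among the latter. The IL4-/-KO libraries serve in both comparisons and the KO repeats enter the KO means, so these shares are not independent. With a term for library set over all 10 libraries, limma called 78 genes, 77 higher (0.532%) and 1 lower (0.00691%); 46 of them were at 0 in at least 1 KO repeat and 33 in both.

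Immediate early genes, the first to be transcribed when a T cell receptor or a stress pathway fires, were lower as a group. Of the 20 members tested, 18 had a log2 fold change below 0 and the median was -1.12, against -0.02 over all genes. With an unadjusted p under 0.05, 12 were lower and 0 higher (all genes, 4.24% lower), and 4 did not overlap between sides (all genes, 3.18%). No member passed the adjusted threshold with limma, while DESeq2 called Ier2, Dusp1, Jund, Junb and Btg2.

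Dusp1, a phosphatase that switches off stress kinases, was read at 38849 and 42170 normalized counts for WT, 52364 and 56301 for KO, 11398 and 27475 for IL4-/-, and 26238 and 17284 for IL4-/-KO (log2 fold change -1.27 ± 0.33, limma, adjusted p = 0.294). Junb was read at 78203 and 121894 for WT, 121049 and 139093 for KO, 41817 and 70361 for IL4-/-, and 54360 and 45215 for IL4-/-KO (-1.12 ± 0.35, limma, adjusted p = 0.341). Jund, another AP-1 subunit, gave -1.14 ± 0.33 and Ier2, a nuclear early response protein, -1.20 ± 0.29. In these 4 genes all Il4-deficient replicates lay below all Il4-sufficient ones.

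Nr4a1, an orphan receptor widely used as a reporter of antigen receptor signalling, was read at 45947 and 51524 normalized counts for WT, 25905 and 55485 for KO, 15732 and 36720 for IL4-/-, and 17988 and 14443 for IL4-/-KO (log2 fold change -1.13 ± 0.36, limma, adjusted p = 0.342). It overlapped through IL4-/- replicate 2. Fos, an AP-1 subunit, and Egr1, a zinc finger factor, were more scattered. Fos was read at 90311 and 16920 for WT, 31298 and 32426 for KO, 6986 and 40462 for IL4-/-, and 5645 and 8735 for IL4-/-KO (-1.70 ± 0.64). Egr1 was highest in WT replicate 1, at 50726, and next in IL4-/- replicate 2, at 17158 (-1.62 ± 0.64). Those 2 libraries also held the highest summed epithelial markers of their sides, 284807 and 160613, whose part in the result was not tested.

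The list median was -1.45 in the deeper set, -0.86 with the mean of the epithelium list as a covariate and -0.95 without WT replicate 1. Lower members with an unadjusted p under 0.05 numbered 12 with the epithelium covariate. They numbered 7 without WT replicate 1, KO replicate 1, KO replicate 2 or IL4-/- replicate 1, against 12 with all 8, and 15 without IL4-/- replicate 2. Nr4a2 and Nr4a3, relatives of Nr4a1, were the 2 members above 0, at 0.49 and 0.46.

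**Figure D3:**
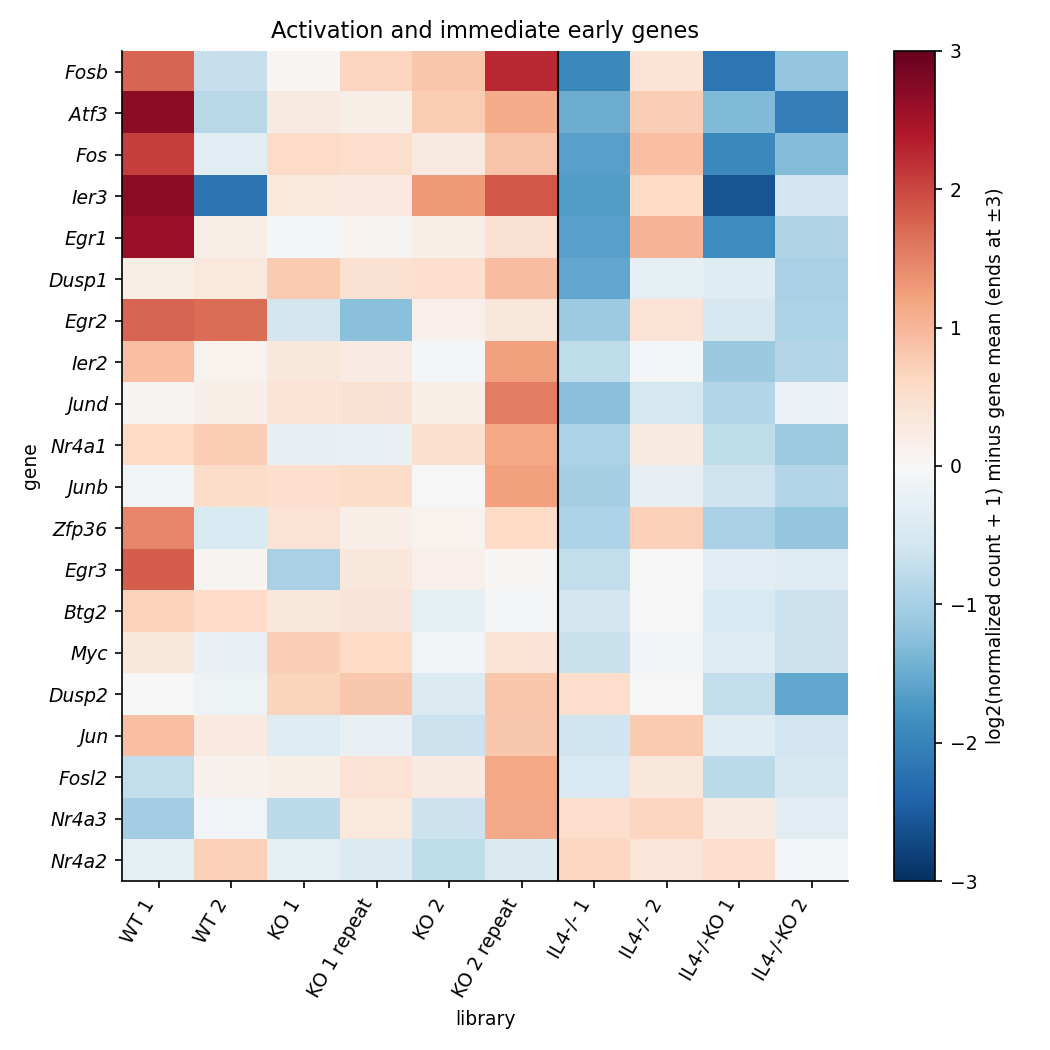
Heat map of the 20 activation and immediate early genes (rows) in the 10 libraries (columns), coloured by log2(normalized count + 1) minus the gene's mean, from -3 in blue to 3 in red. Most rows are blue right of the line, in the Il4-deficient libraries, except in IL4-/- replicate 2, which is red for several genes, Fos and Egr1 among them; Nr4a2 and Nr4a3 at the bottom go the other way.

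Many immediate early promoters carry the cyclic AMP response element, whose core is TGACG and whose full form is TGACGTCA. Runs from Dusp1 and Nr4a1 are printed as examples of windows with the core, picked after the matches were known, with the core or full form in capitals on either strand. Dusp1 is chr17:26508473-26508722 on the minus strand and Nr4a1 chr15:101266596-101266845 on the plus strand, each the 250 bases before the start in RefSeq (GRCm38.p6).
Dusp1: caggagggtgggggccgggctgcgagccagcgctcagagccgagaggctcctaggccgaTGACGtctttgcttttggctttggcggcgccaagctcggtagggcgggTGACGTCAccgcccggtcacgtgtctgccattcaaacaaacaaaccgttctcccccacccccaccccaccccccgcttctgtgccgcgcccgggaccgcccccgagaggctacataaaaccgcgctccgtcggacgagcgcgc
Nr4a1: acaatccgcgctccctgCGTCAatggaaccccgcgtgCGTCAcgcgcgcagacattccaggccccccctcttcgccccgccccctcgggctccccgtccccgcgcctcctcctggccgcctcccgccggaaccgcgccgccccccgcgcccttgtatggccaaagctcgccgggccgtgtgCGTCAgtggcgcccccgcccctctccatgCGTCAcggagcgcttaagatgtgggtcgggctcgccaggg
The core was found 3 times before Dusp1, where 2 matches overlap in a full palindrome, and 4 times before Nr4a1. Of the 20 list members, 16 had a window and 10 held the core in at least 1, as did 8 of the 9 lower ones with a window, beside 29.4% of all 11133 genes with a window and 25.3% of windows. The 9 are a subset set by the fold changes of these data. The full form was found in 2 of the 16 and in 2.96% of all genes. Other motifs were counted in the same windows. The NFAT core was in 4 of the 16 and 1 of the 9 (all genes, 58.6%). The STAT-type palindrome was in 0 of the 16 (all genes, 5.56%), and the letters GATA in 3 of the 16 and 1 of the 9 (all genes, 46.3%). A match is a description of the letters, and other lengths of promoter were not searched.

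Protein turnover and energy genes were slightly lower together. Of 27 tested proteasome subunits, 25 were below 0, with a median log2 fold change of -0.44, and 9 were lower with an unadjusted p under 0.05 (all genes, 4.24%). The sides did not overlap for 6 of them (all genes, 3.18%). The 2 most abundant members, Psmb8 and Psmd2, gave -0.45 ± 0.27 and -0.48 ± 0.18. The sides overlapped for Psmb8 and not for Psmd2. Psmb2, a subunit of the catalytic core, had the lowest log2 fold change of the list. It had 3369, 2604, 3581 and 3047 normalized counts in the Il4-deficient replicates and 5621, 3889, 7263 and 5377 in the others (-0.79 ± 0.22, limma, adjusted p = 0.316). Psmc3, an ATPase of the regulatory cap, had 4799, 3993, 5028 and 5455 against 7138, 6028, 8448 and 7991 (-0.62 ± 0.18), and was the 1 subunit that DESeq2 called (adjusted p = 0.0407). The 27 subunits summed to 88391 normalized counts in IL4-/- replicate 2, below the 124756 to 134929 of the other Il4-deficient libraries. Lower members with an unadjusted p under 0.05 numbered 3 without IL4-/- replicate 2 or IL4-/-KO replicate 1, 5 without WT replicate 1, KO replicate 1 or IL4-/-KO replicate 2, 4 with the set term and 3 in the deeper set, against 9 with all 8 replicates. The list median was -0.41 in the deeper set, where 8 of the 27 were above 0, and -0.22 once a trend on transcript length was removed from each replicate, when 3 members had an unadjusted p under 0.05.

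All 32 nuclear genes of oxidative phosphorylation had a log2 fold change below 0 (51.2% of all genes), with a median of -0.37, and 7 were lower with an unadjusted p under 0.05 (all genes, 4.24%). The 2 most abundant members, Atp5b and Atp5a1, gave -0.12 ± 0.28 and -0.19 ± 0.24, and their sides overlapped. Sdhb, an iron-sulphur subunit of succinate dehydrogenase, had the lowest log2 fold change of the list. It had 3680, 2792, 4199 and 4214 normalized counts against 5266, 4404, 7827 and 6386 (-0.67 ± 0.20). Its sides did not overlap, as was also true of Ndufb8 of complex I (-0.59 ± 0.20). The count of such members ranged from 2 without WT replicate 1, IL4-/- replicate 2 or IL4-/-KO replicate 1 to 18 without WT replicate 2. The median was -0.20 without WT replicate 1, and -0.20 with the length trend removed, when 3 members were lower with an unadjusted p under 0.05. In the deeper set 6 of the 32 were above 0.

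Genes of glycolysis and the hypoxia response were lower too, 20 of 21 below 0 (51.2% of all genes) with a median of -0.67 (-1.08 in the deeper set), and 4 with an unadjusted p under 0.05 (all genes, 4.24%). Bnip3, a hypoxia-induced mitophagy receptor, had 312, 421, 373 and 187 normalized counts against 1521, 494, 877 and 545, with no overlap (-1.32 ± 0.43, limma, adjusted p = 0.346). Vegfa, the angiogenic growth factor, was spread widely, at 563, 1350, 237 and 186 against 5849, 840, 482 and 2212 (-1.82 ± 0.68). Ldha, the lactate-forming dehydrogenase, overlapped through WT replicate 2, at 23267 (-0.79 ± 0.38). The median shrank to -0.31 with the epithelium covariate, and the members lower with an unadjusted p under 0.05 ranged from 1 without any of KO replicate 2, IL4-/-KO replicate 1 or IL4-/-KO replicate 2 to 12 without WT replicate 2.

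Chromatin remodellers and histone methyltransferases went the other way. Of 30 tested, 29 were above 0 (48.8% of all genes) and the median was 0.95. With an unadjusted p under 0.05, 18 were higher (all genes, 7.41%). Without WT replicate 2, 10 passed the adjusted threshold, beside 415 of all 14473 genes. The number with an unadjusted p under 0.05 was 12 without WT replicate 1 or IL4-/-KO replicate 1 and 23 without WT replicate 2. It was 6 with the set term, where the median was 0.37, and 6 in the deeper set. The sides did not overlap for 4 members (all genes, 2.97%). The 2 most abundant members, Chd7 and Chd2, overlapped and gave 0.67 ± 0.38 and 1.08 ± 0.57, each with an unadjusted p above 0.05. Ep300, the acetyltransferase p300, had 2886, 3543, 2700 and 2478 normalized counts in the Il4-deficient replicates and 944, 1588, 1051 and 713 in the others (1.48 ± 0.25, limma, adjusted p = 0.182; DESeq2, adjusted p = 0.00156). Setd2, which trimethylates histone H3 along transcribed genes, had 3714, 1874, 2386 and 1340 against 672, 1555, 370 and 262 (1.94 ± 0.41). Ep300 did not overlap between sides, whereas Setd2 did through WT replicate 2.

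Not all of these genes differed within the deeper set. Kmt2a, a histone H3 methyltransferase, gave 0.99 ± 0.26 over the 8 replicates and 0.14 in the deeper set, since its KO repeats (2609 and 2461) lay above its first KO libraries (1081 and 926). For Kmt2d, a related methyltransferase, the values were 1.36 ± 0.40 and -0.05. The list median was 0.41 in the deeper set.

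The members of this list have long transcripts, with a median of 8508 bases for the longest annotated form against 3275 over all genes, and the log2 fold change followed transcript length throughout. Its Spearman correlation with length across 14189 genes was 0.32, as a description, since genes share libraries. From the shortest to the longest decile of transcripts the median log2 fold change went from -0.31 to 0.64, and the share of genes higher with an unadjusted p under 0.05 from 0.775% to 28.3%. The same correlation was 0.22 in the deeper set and 0.03 for KO repeat minus first library. With the length trend removed, the chromatin median was 0.07 and 4 members were higher with an unadjusted p under 0.05. The 10 genes named above as higher have longest transcripts of 4552 to 15459 bases, and the 1073 higher genes had a median of 5720 against 2252 for the 614 lower ones. With the length trend removed, those 10 gave log2 fold changes of 0.34 (Lpp) to 2.04 (Arhgap5), against 1.26 (Exoc4) to 2.83 (Arhgap5) before. For Lpp the change was from 1.47, and Cd44 went from 0.62 to 0.23. Whether transcript length acted on the library or on the cells was not tested.

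**Figure D4:**
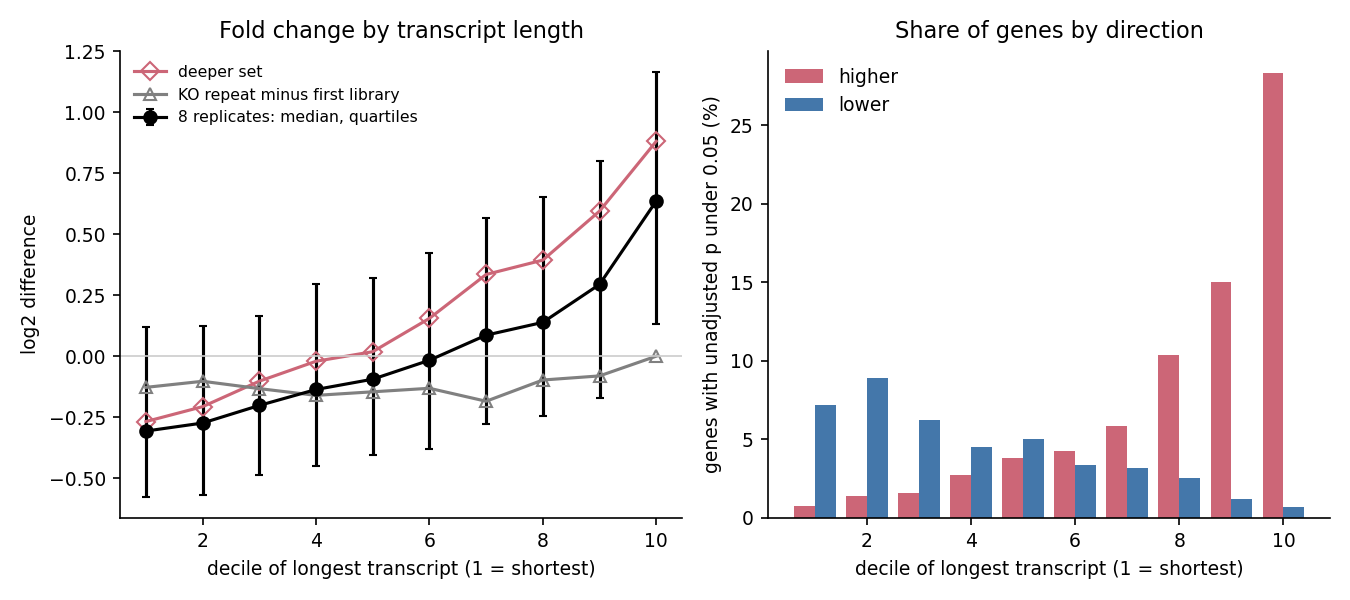
Left, median log2 difference by decile of longest transcript for the comparison over 8 replicates (black, bars are quartiles), the deeper-set comparison (red) and KO repeat minus first library (grey); right, the share of genes in each decile with an unadjusted p under 0.05, higher in red and lower in blue. The black median climbs from -0.31 to 0.64 and the grey line stays near 0.

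Helper and regulatory T cell lists held genes on both sides of 0. Within the 15 type 17 genes, Ccr6, Rora, Il17a, Il1r1 and Il23r were higher (all genes, 7.41%) and Ccl20 lower (all genes, 4.24%) with an unadjusted p under 0.05. The higher count was 2 without KO replicate 2, either IL4-/- replicate or IL4-/-KO replicate 1, 3 without WT replicate 1 and 3 in the deeper set; the lower count was 0 without KO replicate 1 or IL4-/-KO replicate 2 and 2 without IL4-/- replicate 1. Ccr6, the chemokine receptor of type 17 cells, had 621, 429, 564 and 259 normalized counts against 241, 186, 30.3 and 67.6 (2.16 ± 0.55, limma, adjusted p = 0.288), and its KO repeats held 13.6 and 0. Rora, a nuclear receptor of that lineage, had 6493, 7808, 8816 and 8391 against 2056, 5652, 5751 and 2268 (1.16 ± 0.37). Il17a, its signature cytokine, had 337, 377, 233 and 149 against 178, 135, 116 and 58.3 (1.19 ± 0.45). Ccr6 and Rora did not overlap between sides and Il17a did. With the length trend removed, Rora was 0.26 and Ccr6 2.36. Ccl20, the ligand of CCR6, was lower at 0 to 20.6 against 30.8 to 168 (-3.04 ± 1.13). The list median was 0.08 over the 8 replicates and -0.47 in the deeper set.

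Regulatory T cell genes were also mixed, with Nrp1, Foxp3 and Ikzf2 higher (all genes, 7.41%) and Tnfrsf4 and Tnfrsf18 lower (all genes, 4.24%) at an unadjusted p under 0.05 among 14 tested. The higher count was 1 without IL4-/-KO replicate 1 and 5 without IL4-/-KO replicate 2, and the lower count 0 without WT replicate 2, KO replicate 1 or IL4-/-KO replicate 2. Nrp1, a semaphorin receptor, had 3510, 4297, 4890 and 3724 normalized counts against 1189, 2391, 946 and 1436, with no overlap (1.54 ± 0.29, limma, adjusted p = 0.212; DESeq2, adjusted p = 0.00373). Foxp3, the defining factor of regulatory cells, had 1415, 1141, 5327 and 1511 against 437, 182, 371 and 2456 (1.87 ± 0.63), and overlapped through KO replicate 2. The sort took CD25- cells, yet Il2ra, which encodes CD25, was read at 400 to 4201 normalized counts over the 8 replicates and gave 0.85 ± 0.44. Tnfrsf4, which encodes the costimulator OX40, had 5506, 4899, 15168 and 7778 against 5494, 8937, 36714 and 20698 (-0.89 ± 0.34).

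Tox, a factor of follicular and of exhausted T cells, stood out in both lists that hold it: it had 4804, 2678, 3923 and 2841 normalized counts against 935, 1748, 1216 and 1399, with no overlap (1.42 ± 0.28, limma, adjusted p = 0.221; DESeq2, adjusted p = 0.00323), and 1.53 in the deeper set. The 20 type 1 genes had a median of 0.20, and of -0.0054 in the deeper set. Il18r1 (1.19 ± 0.47) and Stat4 were higher at an unadjusted p under 0.05 (all genes, 7.41%), so the list was near the background. Ifng and Tbx21 were at -0.53 and -0.25. Among cytotoxic and natural killer receptor genes, Klrg1, an inhibitory receptor of effector cells, was higher within each Tgfbr2 background, at 428 and 515 normalized counts in IL4-/- against 339 and 206 in WT and at 7198 and 7600 in IL4-/-KO against 2860 and 5210 in KO (0.88 ± 0.27, limma, adjusted p = 0.337). Of 15 naive and central memory genes 13 were above 0 (48.8% of all genes), but 8 were in the deeper set, and the median was 0.56 over the 8 replicates and 0.22 with the length trend removed. The 3 with an unadjusted p under 0.05 (all genes, 7.41% higher) were Il7r, S1pr1 and Foxp1, a quiescence factor with 2852 to 4734 normalized counts against 1314 to 4328 (0.79 ± 0.27). With the length trend removed, Foxp1 was 0.22 and Il7r 0.98.

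Beyond Ski, the TGF-beta response list held Pmepa1 and Tgif1 as lower genes with an unadjusted p under 0.05 among 15 (all genes, 4.24%). Pmepa1, a feedback inhibitor of TGF-beta signalling, was read at 6580 and 5748 normalized counts for WT, 629 and 1275 for KO, 2598 and 1469 for IL4-/-, and 400 and 472 for IL4-/-KO (-1.35 ± 0.31, limma, adjusted p = 0.259). On each Tgfbr2 background both Il4-deficient replicates were lower, but in the deeper set the difference was -0.01, with 297 and 647 in the KO repeats. Tgif1, a SMAD corepressor, gave -1.15 ± 0.35 and -1.46 in the deeper set. Tgfbr2 itself was read at 7876 and 7894 for WT, 6730 and 7623 for KO, 13816 and 12544 for IL4-/-, and 7762 and 8205 for IL4-/-KO (0.45 ± 0.21), and -0.09 in the deeper set. As for Il4, a count over the whole gene does not show which part of Tgfbr2 was read.

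Of 23 T cell receptor signalling genes, 2 were lower (all genes, 4.24%) and 2 higher (all genes, 7.41%) with an unadjusted p under 0.05. The list was thus near the background, and its members below are single genes. Lat, the adaptor that links the receptor to its effectors, had 10736, 6021, 8383 and 8451 normalized counts against 10979, 25604, 16179 and 15439, just without overlap (-0.98 ± 0.31, limma, adjusted p = 0.341), and Zap70, the kinase upstream of it, gave -0.67 ± 0.28. Nfatc3, an NFAT family member, was higher without overlap, at 7649 to 10467 against 2808 to 6596 (0.93 ± 0.28). Isg15, an interferon-induced modifier, had 1892 to 2414 against 2614 to 5476 (-0.80 ± 0.26), although the interferon list as a whole had a median of -0.02. Among 24 cell cycle genes, 1 was higher (all genes, 7.41%) and 4 lower (all genes, 4.24%) with an unadjusted p under 0.05. The list median was -0.31, and 0.04 in the deeper set. The higher gene was Mki67, a proliferation marker with a long transcript, at 2637, 1741, 5100 and 2569 against 126, 1838, 436 and 134 (3.02 ± 0.81, limma, adjusted p = 0.304). Aurka, Cdc20, Rrm2 and Ccnb2 were the lower ones, at -0.74 to -0.60. Of 43 ribosomal protein genes 0 had an unadjusted p under 0.05, with a median of 0.08.

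Markers of other cells varied from replicate to replicate. The 19 epithelial markers summed to 34767 to 284807 normalized counts in the Il4-sufficient libraries and 19905 to 160613 in the Il4-deficient ones, and Csn2 and Krt5 were at 0 in at least 1 library. Of 18 tested, 16 were below 0 and 2 above, with log2 fold changes of -2.06 to 4.11. With an unadjusted p under 0.05, 3 were lower (all genes, 4.24%) and 1 higher (all genes, 7.41%). The sides did not overlap for 1 member, a higher one (all genes, 2.97%). Krt18, an epithelial keratin, had 3346, 9335, 2981 and 6236 against 55536, 5196, 11680 and 30436, so its sides overlapped (-1.87 ± 0.71, limma, adjusted p = 0.391). The 11 neutrophil markers summed to 1438 to 41471 and 953 to 10176, with 8 of them at 0 in at least 1 library, S100a9 among them. Of 8 tested, 7 were below 0 and 1 above, with log2 fold changes of -5.32 to 2.30. With an unadjusted p under 0.05, 3 were lower (all genes, 4.24%) and 0 higher. Retnlg, a neutrophil resistin and the lowest of these, had 0, 0.644, 0.742 and 2.89 normalized counts in the Il4-deficient replicates against 27.7 and 9.24 for WT and 935 and 103 for KO. Macrophage markers summed to 41292 to 51489 and 29041 to 150295, the highest in IL4-/- replicate 2. Cx3cr1, a chemokine receptor of monocytes and effector T cells and the single member of that list with an unadjusted p under 0.05, had 498, 2794, 1985 and 5172 against 121, 169, 271 and 601 (3.01 ± 0.56, limma, adjusted p = 0.212; DESeq2, adjusted p = 2.67e-05). Cd8a, which marks a lineage outside the sort gate, had 0, 3.22, 37.1 and 62.1 against 227, 783, 57.5 and 97.5. The part of these cells in the gene groups above was not tested.

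**Figure D5:**
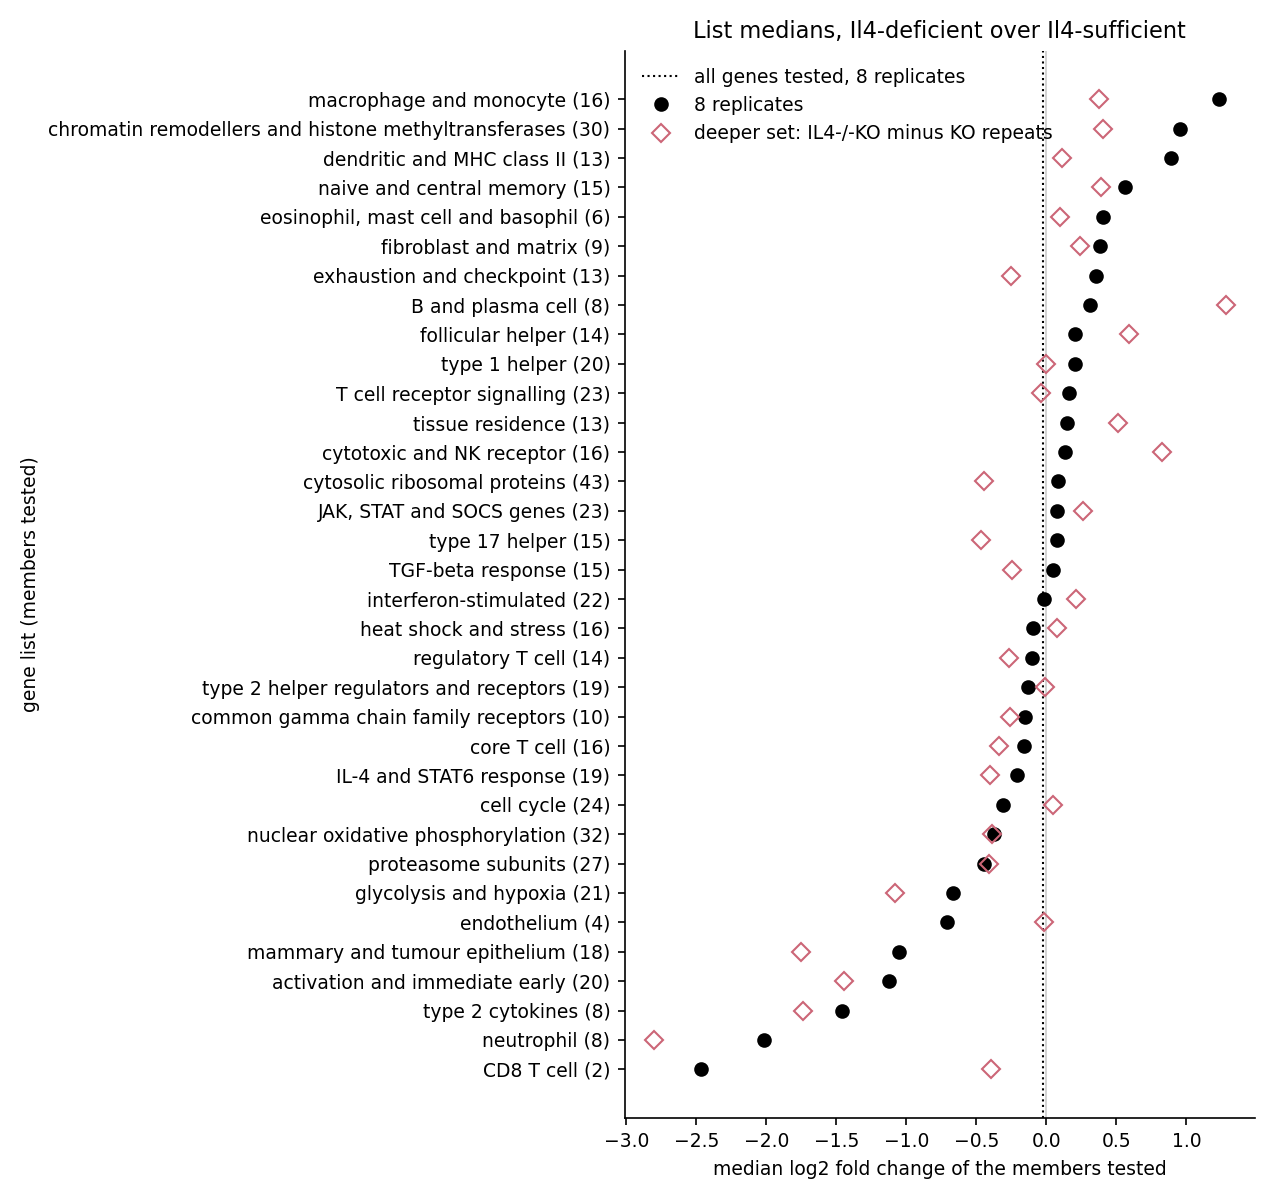
Median log2 fold change of the tested members of each of 34 gene lists, Il4-deficient over Il4-sufficient, over 8 replicates (black) and in the deeper set (red diamonds); the dotted line is the median of all genes, -0.02, and the number of members tested is in brackets. Type 2 cytokines (-1.46) and immediate early genes (-1.12) lie at the low end with CD8, neutrophil and epithelial markers, and chromatin genes (0.95) near the top.

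An Il4-null allele is bred in with its chromosomal surroundings, so the genes near Il4 were read separately. Of 22 tested genes that start within 1 Mb of the start of Il4, other than Il4, Aff4 and Rapgef6 were higher and Csf2 and Il5 lower with an unadjusted p under 0.05 (18.2%, against 11.7% of all genes). The median was -0.12, and 0 of the 22 had sides that did not overlap. Kif3a, a kinesin subunit gene directly downstream of Il4, had 608, 839, 324 and 663 normalized counts against 451, 751, 231 and 207 (0.69 ± 0.37). Rad50, a DNA repair gene between Il13 and Il5, gave 0.62 ± 0.50. Within 5 Mb, 9 of 109 genes were higher and 3 lower (11%), with a median of -0.07.

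The effect of Il4 loss was then read on each Tgfbr2 background. With Tgfbr2 intact, both WT libraries were of the shallower set and both IL4-/- libraries of the deeper one. With Tgfbr2 deleted, the KO means held libraries of both sets. A difference between the backgrounds therefore cannot be told apart from this difference in library set. For Il4 the effect was -1.0 with Tgfbr2 intact and -2.60 with it deleted, for Il5 -2.83 and -3.72, for Csf2 -1.09 and -1.96, and for Il13 -0.48 and -3.30. The type 2 cytokine median was -0.74 and -2.28, and the immediate early median -0.91 and -1.30. For none of those 4 cytokine genes did the interaction have an unadjusted p under 0.05 (0.198 for Il4, limma). Across all genes the limma interaction called 0, with 510 (3.52%) at an unadjusted p under 0.05, edgeR called 0 and DESeq2 39. The 6 genes with the smallest interaction p were Hoxb2, Pgr, Tgfb1, Rab38, Sbno2 and Zc3h12a, each with an adjusted p of 0.988. Tgfb1, encoding TGF-beta 1, had 3413 and 3881 normalized counts in IL4-/- against 1606 and 1851 in WT, but 2650 and 2813 in IL4-/-KO against 4600 and 6371 in KO. Its KO libraries held 4046 and 3644 first and 5153 and 9097 in the repeats. Zc3h12a, encoding the mRNA-degrading enzyme Regnase-1, had 1116 and 2079 against 839 and 766, and 1060 and 597 against 4081 and 2654. In both genes IL4-/- was above WT and IL4-/-KO below KO.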

How the data were processed

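Messenger RNA of sorted cells was sequenced in 10 libraries made with SMART-Seq amplification, which carries no molecular identifiers, so counting limits cover counting error only. Reads were demultiplexed with bcl2fastq 2.18.0, and STAR, DESeq2 and mm10 are named, per the submitters' processing notes. The deposited values are a signal per gene, read counts divided by a size factor by the authors; whole reads were recovered for 100% of values within 0.001 reads. Of 17370 entries, 7 without a name were left out, and 14473 genes that reached 10 normalized counts in 2 or more of the 8 replicates were tested. First and repeat KO libraries, from 1 RNA, were averaged. The test was limma 3.58.1 with a variance trend on log2(normalized count + 1) in R 4.3.3, with Il4 and Tgfbr2 status as terms, 5 residual degrees of freedom and Benjamini-Hochberg adjustment at 0.05. Fold changes on this scale understate those of low genes. Alternatives on recovered reads were edgeR 4.0.16 and DESeq2 1.42.0. By rule, the genes named were Il4, Il5, Il13 and Tgfbr2, the 10 per direction with the smallest p among genes with no overlap between sides and a mean of at least 50 normalized counts in the higher group, the 2 members of each T cell list with the smallest p, the 2 most abundant of each other list, and the 3 tested neighbours on each side of Il4. Further list members were chosen after their values were seen. Members and lists were chosen with earlier results of these data known. The fits were tested on simulated data that held no effect of library set, Tgfbr2 status or transcript length, so that test does not cover those features. Positions are from GENCODE M21 (mm10), and sequences from RefSeq.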

Additional observations from a re-analysis of the deposited data

Results flagged for a closer look

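In 17 of 180 sides of 4 replicates examined, 1 replicate lay farther from the others than Dixon's 95% limit allows, a result that chance gives in about 1 side in 20. Each side mixes both Tgfbr2 genotypes. Among cytokines and regulators, KO replicate 2 was far above its side for Il5 (3660 normalized counts), Il13 (247) and Foxp3 (2456). On the Il4-deficient side IL4-/-KO replicate 1 was far above for Il5 (681) and Foxp3 (5327). IL4-/- replicate 2 stood apart for Nr4a1 (36720), Psmb8 (9941), Apoe (38435) and Fn1 (4209). WT replicate 1 stood apart for Ltf (40465), Kit (9068), Eng (498) and Sowaha (63.2), and WT replicate 2 for Chd2 (9483) and Lcn2 (1685). KO replicate 1 stood apart for Il1r2 (4389) and IL4-/-KO replicate 2 for Atp5a1 (22142).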

How the results depend on the processing

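Across 28 alternatives, 74 of the 90 named genes kept their direction in all of them. Against 0 calls with limma, quantile normalization gave 1, removal of the transcript length trend 1, an epithelium covariate 2, first KO libraries only 4, a term for library set 78 and DESeq2 221; leaving out 1 replicate gave 0 to 415. Genes with an unadjusted p under 0.05 numbered 2541 with the set term and 946 to 2887 with 1 replicate left out, against 1687. Around Il4 there were 1 without a covariate, 1 in the deeper set, 1 with the length trend removed, 2 with edgeR and 1 to 9 with 1 replicate left out, against 4. List genes numbered 67 without a variance trend, 71 with the length trend removed and 61 to 162 with 1 replicate left out, against 107. The interaction gave 39 calls with DESeq2 and 0 to 0 with 1 replicate left out. Signs turned for 16 genes, in 57 of the gene and setting pairs; the cause was not tested. Jchain was 0.0079 with a pseudocount of 5, 0.47 with repeat KO libraries, 1.10 with the set term, 0.11 with all 10 libraries and no set term (chosen after seeing the data), 0.89 in the deeper set, 0.075 with length removed, 0.45 in edgeR and 0.46 in DESeq2, and -0.93 to 0.85 on leaving out a replicate. Rplp0 was 0.16 with quantile normalization, 0.11 with first KO libraries, 0.073 without the KO replicate 2 repeat, 0.12 with the epithelium covariate, 0.16 with length removed and -0.35 to 0.11 on leaving out a replicate. Atp5b was 0.17, 0.044 and 0.050 with quantile normalization, the epithelium covariate and length removed. Kit was 0.00064 with first KO libraries, 0.77 with the epithelium covariate and -0.88 to 0.47 on leaving out a replicate. Sept8 was -0.30 with the set term, -0.73 in the deeper set, -0.015 with length removed, -0.028 in edgeR, -0.048 in DESeq2 and -0.11 to 0.82 on leaving out a replicate. Lcn2 was 1.06 with the epithelium covariate, 0.035 in edgeR, 0.0061 in DESeq2 and -1.58 to 0.94 on leaving out a replicate. Irf2bp2 was 0.32 and 0.24, and Eng 1.04 and 1.58, with the set term and in the deeper set. In the deeper set Tgfbr2 was -0.089, Hspa8 0.023 and Pecam1 -0.035. With length removed Tgfbr2 was -0.23 and Chd7 -0.18, and Ltf was 0.22 with the epithelium covariate. Fn1 was -1.33 in edgeR and -1.37 in DESeq2. On leaving out a replicate, Fn1 ranged from -1.43 (without KO replicate 1) to 3.13, Il1r2 from -1.11 to 0.17 (without KO replicate 1) and H2-Ab1 from -0.0075 (without IL4-/- replicate 2) to 1.51. Replicate numbers did not pair the samples (correlations of deviations -0.358 to 0.236); with the replicate block there were 0 calls, 1488 genes at an unadjusted p under 0.05, 3 around Il4, 96 list genes and 0 interaction calls.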
